A study of Mus musculus with 18 samples.

Results

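The mucosa of mice given papain and the compound C10 was compared with the mucosa of mice given papain alone, in 12 of the 18 poly(A)-selected RNA libraries of the study. The libraries were chosen by their labels, 6 of the group C10 against 6 of the group CRS, and all 18291 genes of 54532 that passed a filter on low counts were tested between them. CRS stands for chronic rhinosinusitis, in which the nasal and sinus mucosa stays inflamed for months. It was modelled with papain, a plant protease that acts as an allergen: 20 µg in 20 µL of saline was put into the nose on days 0 to 2 and again on days 7 to 11. C10 was instilled on both sides, 10 µL per side at 10 mg/mL, once a day for 10 days, beginning with the first papain dose. The protocol gives C10 to CRS mice, so the C10 group is taken to carry papain as well. No vehicle is recorded for CRS. The study also holds 6 libraries labelled CON, whose treatment the labels do not give, and they are set beside the comparison as a level to read against. Strain, age, sex, hour of collection and whether each library came from its own mouse are not given in the labels, and the p-values therefore rest on library-to-library spread, which may be technical.

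The series title names the compound an inhibitor of APE1, the product of Apex1. APE1 cuts DNA at sites that have lost a base, during base excision repair, and its redox activity keeps transcription factors such as AP-1, NF-kB, HIF-1 and p53 in the form that binds DNA. Papain in the airway releases interleukin-33 from epithelial cells, and the alarm it raises drives type 2 inflammation with mucus production. Many of the genes that differed here belong to the lysosome, the acid compartment where proteins, lipids and sugars are broken down. Its acid comes from the V-ATPase, a rotary pump with a membrane-bound V0 part and a cytosolic V1 part. Genes of the lysosome are switched on together by TFEB, TFE3 and MITF, factors that bind CACGTG, the core of the E-box, and folliculin (Flcn), with its partners FNIP1 and FNIP2 and the GTPases RagC and RagD, holds TFEB and TFE3 out of the nucleus when nutrients are plentiful.

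Of the 18291 genes tested, 15 passed an edgeR adjusted p under 0.05 between C10 and CRS, which is 0.082% of them. In C10 3 genes rose (0.0164%) and 12 fell (0.0656%). The risers were Il33, Tff2 and Galnt15. Those that fell were Uap1l1, Flcn, Fuca2, Dpp7, Cln8, Cd63, Atp6ap2, Gpnmb, Atp6v1c1, Vegfb, Atp6v0c and Ppargc1a. Of these 12, 7 are in the lists of the V-ATPase, of lysosomal hydrolases and of lysosomal membrane proteins used here, and Flcn is in the list of lysosomal nutrient sensing. In each of the 15 genes the 6 C10 libraries and the 6 CRS libraries did not overlap, a separation that 65 genes (0.355%) showed with C10 above and 96 (0.525%) with C10 below. At an unadjusted p under 0.05, 1055 genes (5.77%) were higher in C10 and 1355 (7.41%) lower, and over all genes 51.7% lay above 0 and 48.3% below. The number called depended on the tool: DESeq2 called 109 genes higher (0.596%) and 241 lower (1.32%), limma-voom with quality weights 227 (1.24%) and 321 (1.75%), and all 15 genes passed in both.

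**Figure D1:**
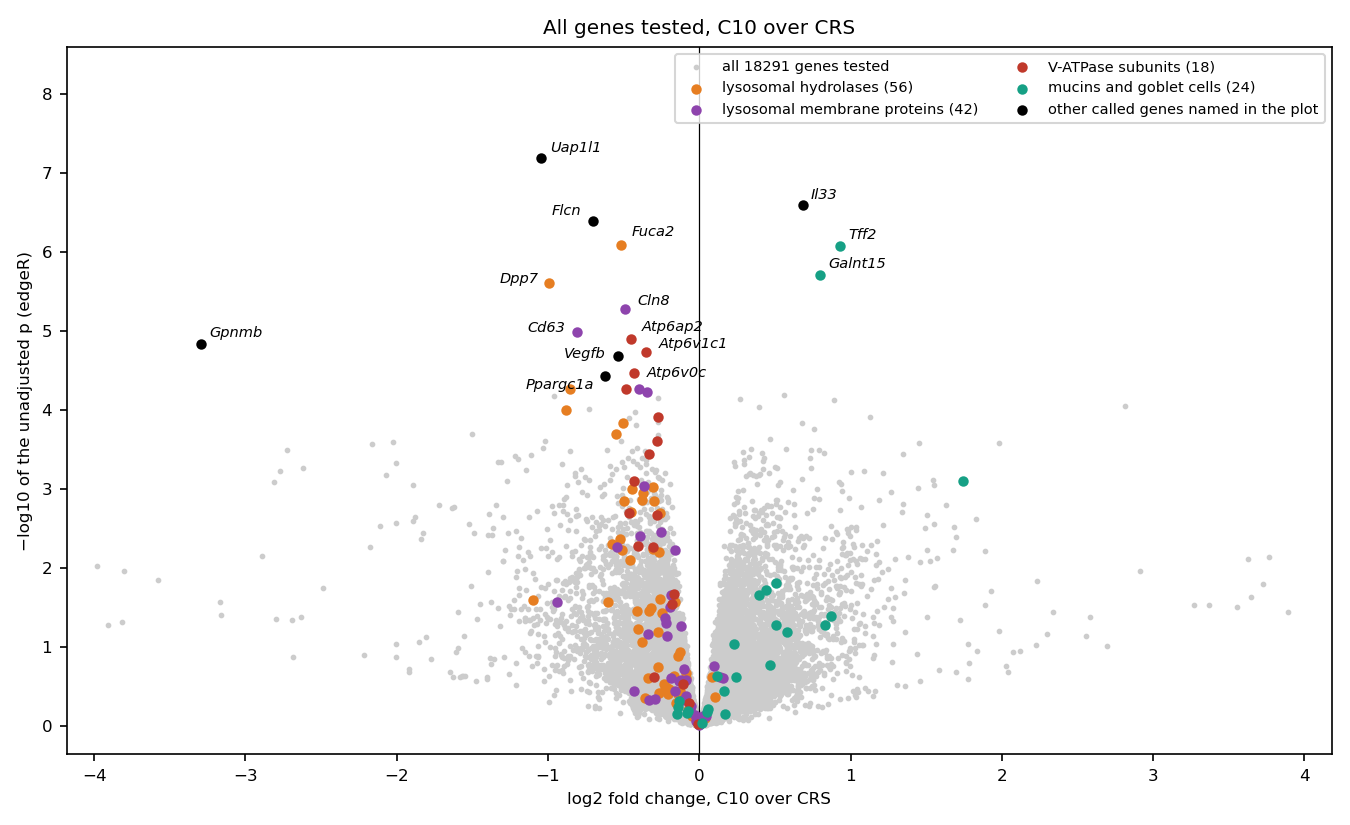
Each point is a gene, with its log2 fold change of C10 over CRS on the x axis and −log10 of its unadjusted p on the y axis, among 18291 genes tested with edgeR. The 15 called genes carry their names, and the V-ATPase, hydrolase and membrane protein genes lie mostly left of 0, while most of the mucin and goblet cell genes lie right of it.

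The libraries differed in ways the groups do not explain. Libraries of C10 held 15883573 to 18128186 counts, those of CRS 16531779 to 17523368 and those of CON 16510920 to 18433866. On the first principal component, with 32.7% of the variance, the C10 libraries spanned -32 to 31.8, while 3 CRS libraries fell outside that span, CRS 2 with -80.9, CRS 5 with -59.1 and CRS 1 with 64.6. Mitochondrially encoded genes took 7.12% of the counts in CRS 5, with 2.66 to 3.35% in C10 and 2.63 to 4.66% in the other CRS libraries. Without CRS 2 the calls came to 24 higher (0.13% of 18479 tested) and 57 lower (0.308%), and without both CRS 2 and CRS 5, a choice planned with earlier results known, to 37 higher (0.198% of 18691) and 63 lower (0.337%), and all 15 genes were called in both. Without CRS 1 as well the calls were 16 (0.0842% of 19001) and 37 (0.195%), and Vegfb was no longer among them. Markers of nasal mucosa were present: olfactory Omp stood at 1605 to 3026 CPM in C10 and 1374 to 3490 CPM in CRS, the gland gene Obp1a at 5674 to 19465 CPM and 7300 to 35310 CPM, and ciliated-cell Foxj1 at 136 to 216 CPM and 114 to 179 CPM. The markers Scgb1a1 and Ugt2a1 were at or near 0. In bulk tissue such as this, fewer cells of a type and less RNA per cell cannot be told apart.

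Promoter sequences were read for the lysosomal genes, from the RefSeq promoter table of GRCm38.p6 with 250 bases before and 50 bases after each gene start. The window of Dpp7, a peptidase gene that fell in C10, is shown first up to the gene start of RefSeq, base 25356332, 5′ to 3′ on the strand of the gene, with the E-box core CACGTG in capitals. It is printed because Dpp7 was the only called gene that holds the core, among 9 of the 12 that fell and 2 of the 3 that rose for which the table has a window. Uap1l1, Cln8, Atp6v1c1 and Tff2 have no entry. The deposited annotation starts Dpp7 at base 25356359, so the last 27 bases shown lie inside the gene by its coordinates.
Dpp7, chr2:25356333-25356582, minus strand: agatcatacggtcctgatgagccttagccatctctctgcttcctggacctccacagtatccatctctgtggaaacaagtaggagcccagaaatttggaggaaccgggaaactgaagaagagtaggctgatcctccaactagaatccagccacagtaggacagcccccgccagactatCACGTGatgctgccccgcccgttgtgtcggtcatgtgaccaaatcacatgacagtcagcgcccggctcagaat
Stretches of at most 50 bases around the core follow for 6 other lysosomal genes that hold TCACGTG, 2 from each of the V-ATPase, membrane protein and hydrolase lists, again with CACGTG in capitals. None of the 6 was called, with edgeR adjusted p from 0.0549 in Atp6v0b to 0.282 in Atp6v1a. Genes of these lists that hold TCACGTG and are not shown include Lgmn (log2 fold change -0.55), Slc36a1 (-0.06) and Clcn6 (0.01). Atp6v0b and Atp6v1a encode pump subunits, Lamp1 and Mcoln1 a coat protein and a calcium channel of the lysosomal membrane, and Ctsd and Arsa a protease and a sulfatase of its interior.
Atp6v0b, chr4:117887330-117887369, minus strand: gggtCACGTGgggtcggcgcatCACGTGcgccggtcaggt
Atp6v1a, chr16:44139363-44139412, minus strand: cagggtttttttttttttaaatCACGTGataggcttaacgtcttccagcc
Lamp1, chr8:13159124-13159160, plus strand: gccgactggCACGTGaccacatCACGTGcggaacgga
Ctsd, chr7:142387898-142387947, minus strand: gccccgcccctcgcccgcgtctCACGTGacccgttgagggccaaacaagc
Arsa, chr15:89477425-89477462, minus strand: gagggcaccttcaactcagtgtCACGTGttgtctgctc
Mcoln1, chr8:3500452-3500501, plus strand: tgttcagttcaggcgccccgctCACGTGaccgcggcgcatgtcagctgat
The cores lie 73 bases before the RefSeq gene start in Dpp7, 18 in Atp6v0b, 131 in Atp6v1a, 15 in Lamp1, 98 in Ctsd, 16 in Arsa and 45 in Mcoln1. Atp6v0b and Lamp1 hold 2 cores in the stretch shown. In Dpp7, Atp6v1a, Ctsd and Mcoln1 the core sits in the palindrome TCACGTGA, of which TCACGTG and CACGTG are parts, and each motif was searched on both strands. CACGTG was present in 4 of the 13 V-ATPase genes with a window (30.8%), in 14 of 45 hydrolase genes (31.1%), in 8 of 34 membrane protein genes (23.5%) and in 6 of 27 nutrient sensing genes (22.2%). Over all 27025 promoters in the table the share was 8.09%, and over the 13073 tested genes with a window 10.5%. Of the 9 called genes that fell and had a window, 1 held CACGTG (11.1%), near that share. For TCACGTG the shares were 30.8%, 26.7%, 23.5% and 22.2% in those lists, against 4.29% of all promoters and 6.09% of the tested genes with a window. Among 64 genes of the nuclear-encoded respiratory chain it was present in 4.69% and among 61 cytosolic ribosomal protein genes in 6.56%. At an edgeR adjusted p under 0.10 there were 48 genes (0.262%). Of the 34 among them below 0, 27 had a window, and 6 of these held TCACGTG (22.2%). A match is a description of these letters and not of a bound site.

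The V-ATPase genes were lower in C10 as a group. Of 18 measured subunit genes, 18 lay below 0 in C10 against CRS, with a median log2 fold change of -0.30 against 0.0084 over all genes tested. At an unadjusted p under 0.05, 14 of the 18 were lower (77.8%, against 7.41% of all genes) and 0 higher. Called were 3, Atp6ap2, Atp6v1c1 and Atp6v0c, and DESeq2 called 10 (1.32% of all genes tested with DESeq2). The mean log2 CPM of the 18 genes ran from 6.51 to 6.68 in the C10 libraries, from 6.76 to 6.99 in the CRS libraries and from 6.68 to 6.84 in the CON libraries. No C10 library reached the lowest CRS library, and 4 of the 6 CRS libraries lay above the highest CON library.

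Atp6ap2, an accessory subunit also known as the prorenin receptor, stood at 182, 188, 177, 179, 192 and 194 CPM in C10 libraries 1 to 6 and at 220, 251, 226, 281, 284 and 257 CPM in CRS libraries 1 to 6. Every C10 value lay below every CRS value, and the fall was -0.45 ± 0.08 on the log2 scale (SE, n = 6 each; edgeR adjusted p = 0.0232). Atp6v1c1, the C subunit that links the V1 part to the stalk, stood at 48.8, 50.01, 50.3, 52.8, 47.2 and 54.9 CPM in C10 and at 66.8, 59.4, 67.1, 70.4, 65.2 and 59.4 CPM in CRS. Here too the groups were apart, by -0.35 ± 0.06 (edgeR adjusted p = 0.0284). Atp6v0c, which forms most of the proton-carrying ring, stood at 34.0, 36.4, 30.9, 34.7, 40.9 and 38.1 CPM in C10 and at 42.1, 46.1, 48.4, 51.5, 56.4 and 45.7 CPM in CRS. Its highest C10 library was only a little under its lowest CRS library, and the difference was -0.43 ± 0.08 (edgeR adjusted p = 0.0442). Atp6v0c overlaps the protein-coding gene Gm43796, so without strand their reads cannot be separated. The next subunits did not pass: the ring gene Atp6v0b (-0.48 ± 0.09, edgeR adjusted p = 0.0549), the accessory gene Atp6ap1 (-0.27 ± 0.06, edgeR adjusted p = 0.0728) and the V1 gene Atp6v1b2 (-0.28 ± 0.06, edgeR adjusted p = 0.0993). The smallest changes were those of Atp6v0a1 (-0.11), Atp6v0a2 (-0.07) and Atp6v0e2 (-0.01), of which the first 2 encode forms of the large membrane subunit. Atp6v0d2, a subunit form of osteoclasts and some macrophages that was counted with the lipid-associated macrophage genes instead, stood at 13.0 ± 3.36 CPM in C10 and 23.5 ± 7.43 CPM in CRS (SD, n = 6 each; log2 fold change -0.86, edgeR adjusted p = 0.151).

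**Figure D2:**
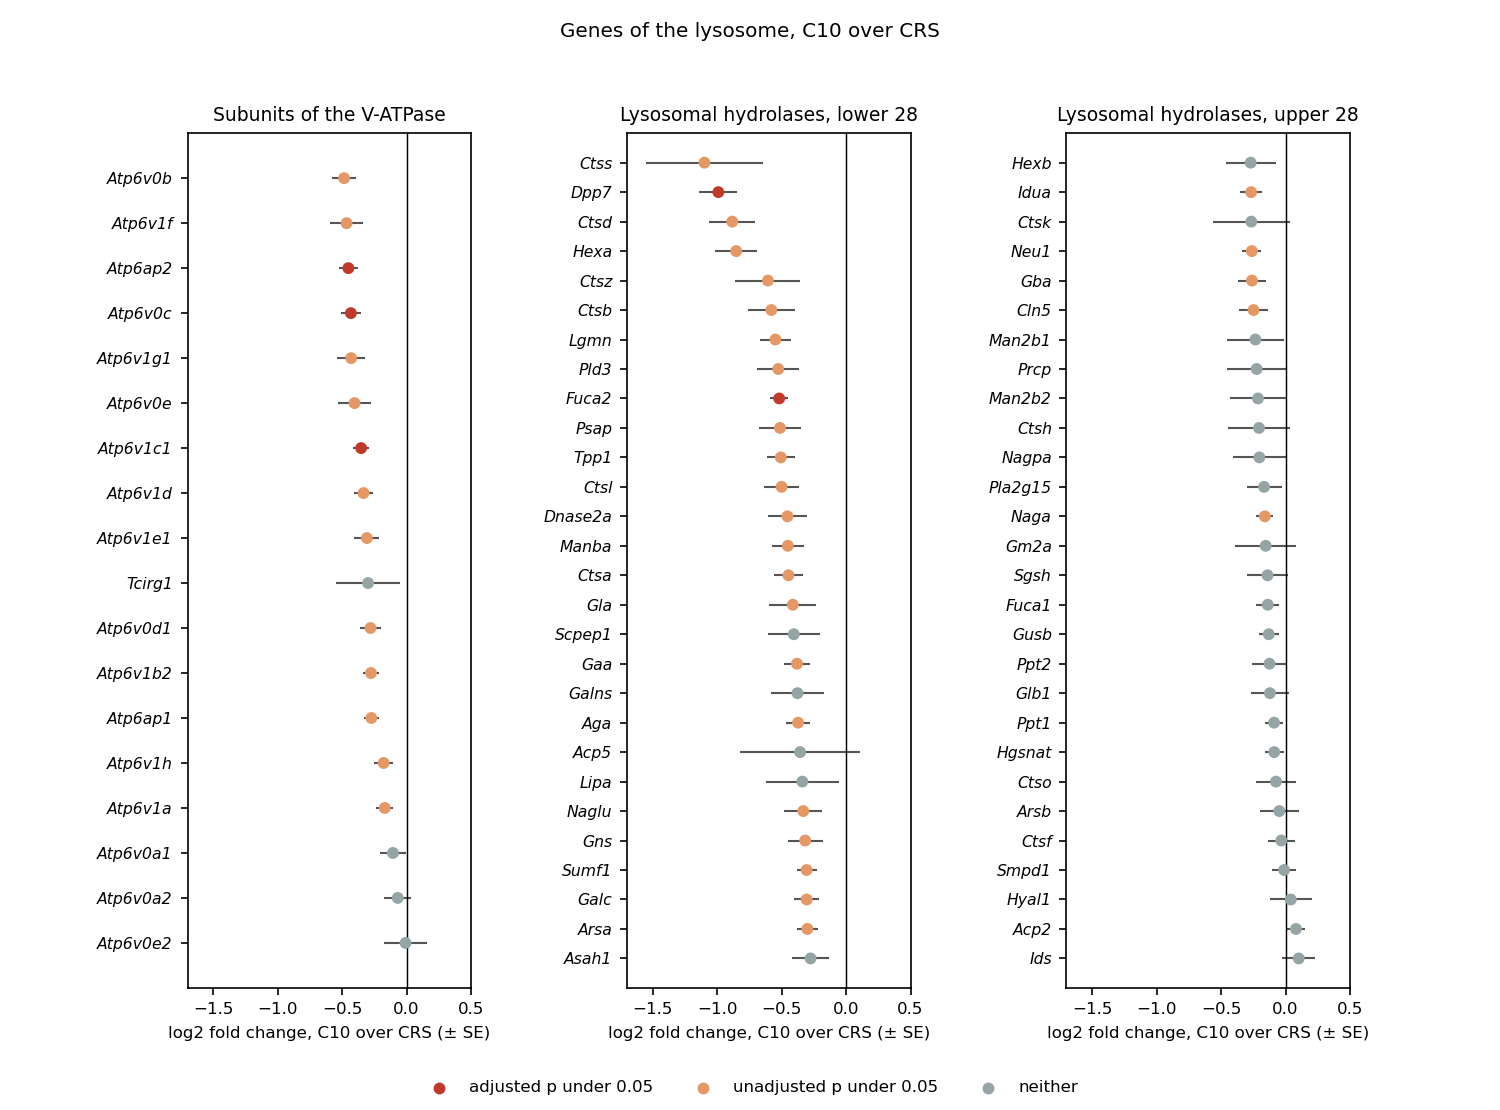
Each point is a gene's log2 fold change of C10 over CRS with its SE as a bar (n = 6 each), for 18 V-ATPase genes in the left panel and 56 hydrolase and activator genes in the others, sorted by size, with edgeR calls marked by colour. All 18 pump genes and 53 of the 56 hydrolase genes lie left of 0, and the named calls are Atp6ap2, Atp6v0c, Atp6v1c1, Dpp7 and Fuca2.

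Genes of lysosomal hydrolases and their activators, the enzymes that the pump's acid serves, were mostly lower in C10 as well. Of 56 measured, 53 lay below 0 and 3 above, the median log2 fold change was -0.27, and 28 (50%) were lower at an unadjusted p under 0.05 against 0 higher. Over all genes tested, 7.41% were lower at that p. In 13 of the hydrolase genes every C10 library lay below every CRS library, against 0.525% of all genes. The test called 2, Fuca2 and Dpp7 (against 0.0656% of all genes lower), and DESeq2 called 14 (against 1.32%). The mean log2 CPM of the list overlapped between the groups, unlike that of the V-ATPase genes. It ran from 5.73 to 6.004 in C10 and from 5.84 to 6.549 in CRS, with CRS 2 and CRS 5 inside the C10 range. In limma-voom 47 genes lay below 0 and 9 above (median -0.179). Without CRS 1 the counts were 46 and 10 (median -0.192), while without CRS 2 and 5 together the median was -0.427. Fuca2, a fucosidase that trims fucose from sugar chains, stood at 107, 109, 105, 113, 116 and 117 CPM in C10 and at 138, 156, 149, 183, 168 and 161 CPM in CRS. The C10 libraries held within a narrow span below all CRS libraries (log2 fold change -0.52 ± 0.07, edgeR adjusted p = 0.00302). Dpp7, a peptidase that removes pairs of residues from the end of peptides, stood at 12.5, 12.4, 15.1, 11.2, 15.2 and 11.9 CPM in C10 and at 29.2, 22.9, 25.5, 30.2, 28.1 and 19.7 CPM in CRS. It was 1.99-fold lower by the means, with no overlap (log2 fold change -0.99 ± 0.15, edgeR adjusted p = 0.00642).

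The next enzymes by p were lower in C10 without passing. Hexa, a subunit of the hexosaminidase that degrades gangliosides, ran from 73.1 to 98.2 CPM in C10 and from 115 to 203 CPM in CRS (-0.85 ± 0.16, edgeR adjusted p = 0.0549). Ctsd, the aspartic protease cathepsin D, averaged 342.4 ± 22.2 CPM in C10 and 631.6 ± 165 CPM in CRS (SD, n = 6 each; -0.88 ± 0.18 SE, edgeR adjusted p = 0.0662). Tpp1, a tripeptidyl peptidase, differed by -0.51 ± 0.11 (edgeR adjusted p = 0.0752), and Lgmn, the asparagine-specific protease legumain, by -0.55 ± 0.12 (edgeR adjusted p = 0.0912). In all 4 the groups did not overlap. The spread was wider in CRS than in C10 for each of them, as the SDs of Ctsd show.

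Among 42 lysosomal membrane proteins and transporters, 34 lay below 0 and 8 above (median -0.15), 14 were lower at an unadjusted p under 0.05 (33.3%) and 0 higher. Without CRS 1 the median was -0.07. By edgeR 2 were called (against 0.0656% of all genes lower), by DESeq2 7 (1.32%) and by limma-voom 5 (1.75%). Both DESeq2 and limma-voom called Lamp1 and Ctns. Cln8, which in the endoplasmic reticulum loads newly made lysosomal enzymes for export, stood at 38.5, 35.9, 33.8, 38.8, 43.2 and 34.2 CPM in C10 and at 53.5, 50.04, 57.9, 48.7, 53.7 and 52.3 CPM in CRS. Its groups were apart (-0.49 ± 0.08, edgeR adjusted p = 0.0122). Cd63, a tetraspanin of late endosomes, lysosomes and exosomes, stood at 178, 191, 183, 177, 206 and 204 CPM in C10 and at 335, 287, 329, 452, 302 and 286 CPM in CRS. CRS 4 was the highest, and the other CRS libraries also lay above all of C10 (-0.81 ± 0.13, edgeR adjusted p = 0.0206). Its processed pseudogene Cd63-ps differed by -0.73 (edgeR adjusted p = 0.0655), so reads may be split between the copies and the value of Cd63 is uncertain to that extent. Lamp1, the major coat protein, ran from 549 to 584 CPM in C10 and from 689 to 834 CPM in CRS (-0.40 ± 0.08, edgeR adjusted p = 0.0549), and Ctns, the cystine exporter, from 22.9 to 27.5 CPM and from 29.3 to 35.7 CPM (-0.34 ± 0.07, edgeR adjusted p = 0.0573).

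Flcn, the gene of folliculin, was called lower in C10, while the genes of the factors it restrains were not. It stood at 37.4, 44.8, 47.0, 43.7, 40.4 and 37.8 CPM in C10, at 65.8, 63.3, 60.1, 79.7, 76.3 and 63.8 CPM in CRS and at 46.9, 46.8, 49.0, 38.4, 52.8 and 53.6 CPM in CON. C10 and CRS did not overlap (-0.70 ± 0.09, edgeR adjusted p = 0.00246), while C10 and CON did. Its partner Fnip2 ran from 15.2 to 27.9 CPM in C10 and from 26.5 to 55.3 CPM in CRS (-0.86 ± 0.19, edgeR adjusted p = 0.101), and Rragd, the gene of RagD, from 96.9 to 126 CPM and from 127 to 218 CPM (-0.59 ± 0.15, edgeR adjusted p = 0.109). Neither passed in edgeR, and both were called lower by DESeq2 and limma-voom. Tfeb differed by -0.07, Tfe3 by -0.09 and Mitf by -0.13 on the log2 scale, with edgeR adjusted p values of 0.856, 0.769 and 0.835, and their groups overlapped. Of all 28 genes in the nutrient sensing list, 19 lay below 0 and 9 above (median -0.09, but -0.03 without CRS 1 and -0.14 without CRS 2), and 2 were higher and 7 lower at an unadjusted p under 0.05. By edgeR 1 was called (against 0.0656% of all genes lower), by DESeq2 5 (1.32%) and by limma-voom 3 (1.75%). Of 34 autophagy genes, 17 lay on each side of 0, with 0 calls by edgeR, 1 by DESeq2 and 1 by limma-voom, and 3 higher and 4 lower at an unadjusted p under 0.05.

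The smallest p of all genes belonged to Uap1l1, which lies next to Dpp7. Its product resembles the enzyme that makes UDP-N-acetylglucosamine, the donor of N-acetylglucosamine for sugar chains. Uap1l1 stood at 35.4, 30.7, 34.5, 30.3, 32.7 and 26.5 CPM in C10 and at 68.0, 65.6, 65.0, 71.2, 65.4 and 56.9 CPM in CRS. Every C10 library lay below every CRS library, 2.06-fold by the means (-1.04 ± 0.12, edgeR adjusted p = 0.00117). In the files' build, mm10, Uap1l1 (ENSMUSG00000026956) lies on chromosome 2 from 25359889 to 25365682 and Dpp7 (ENSMUSG00000026958) from 25352276 to 25356359, both on the minus strand, with 3529 bases between them. The next genes on either side did not pass: Man1b1, a mannosidase of glycoprotein quality control, differed by -0.05 (edgeR adjusted p = 0.736) and Sapcd2, a regulator of spindle orientation, by 0.34 (edgeR adjusted p = 0.543).

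**Figure D3:**
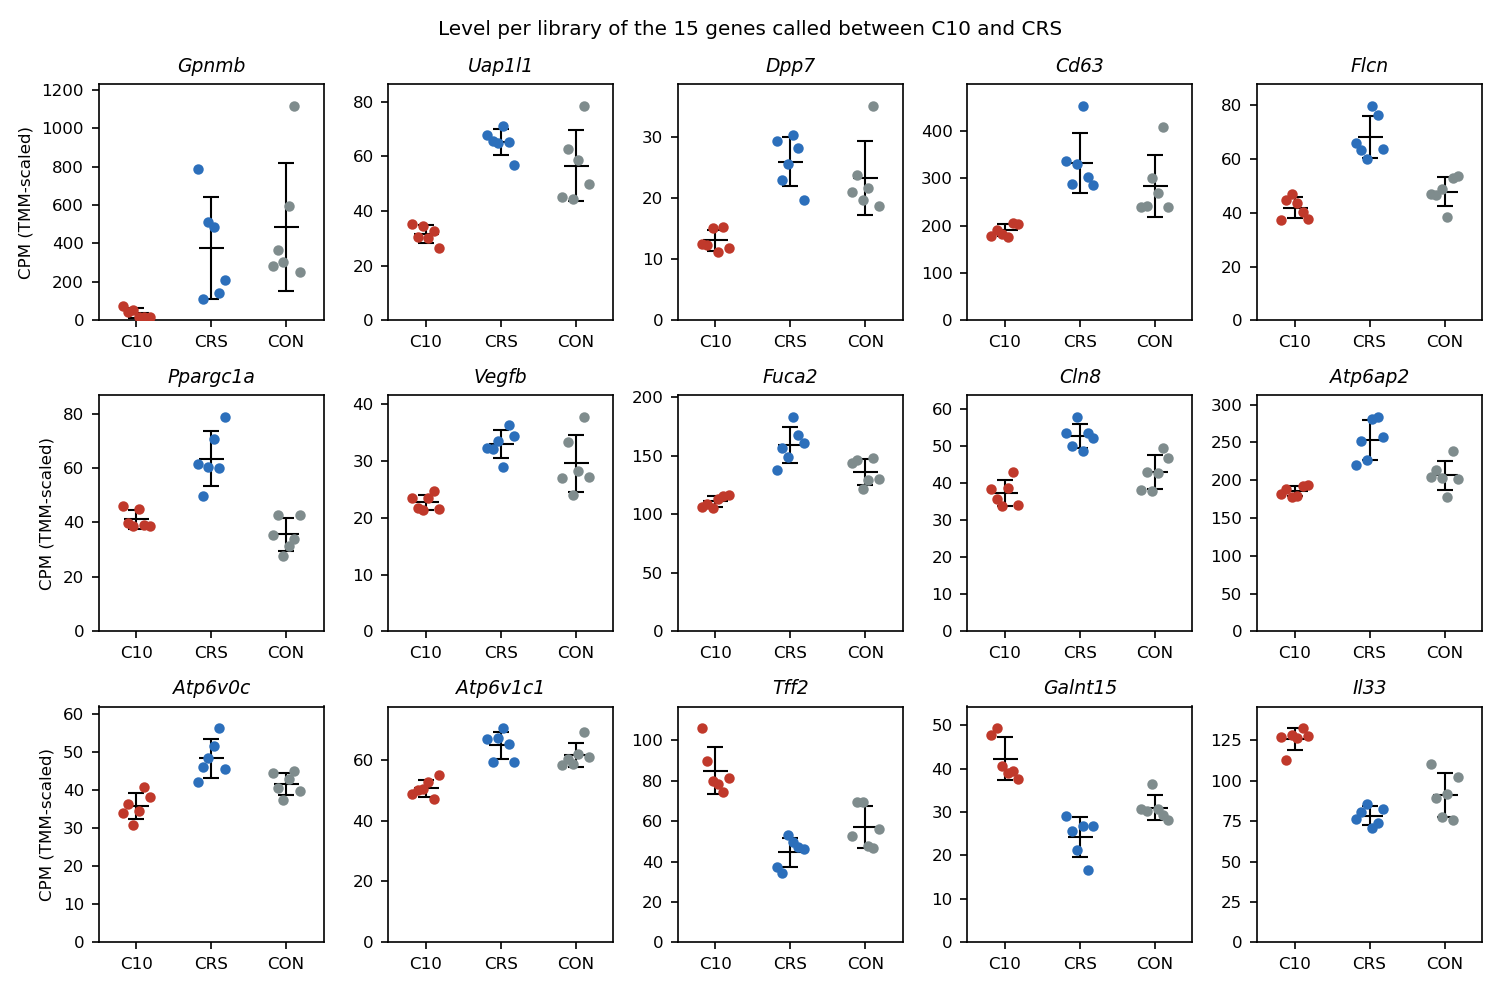
Each panel is a gene that passed between C10 and CRS, with CPM on the y axis, 1 point per library and bars for the mean ± SD (n = 6), for C10, CRS and CON from left to right. The C10 points do not overlap the CRS points in any of the 15 panels. Gpnmb has the largest log2 fold change of the 15, with C10 at 16.7 to 77.3 CPM.

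Gpnmb, a glycoprotein that macrophages make when their lysosomes are loaded, and that osteoclasts and pigment cells also make, had the largest change of the called genes. It stood at 77.3, 43.1, 54.9, 18.2, 18.5 and 16.7 CPM in C10, at 787, 110, 510, 488, 142 and 210 CPM in CRS and at 282, 365, 302, 597, 1115 and 249 CPM in CON. The highest C10 library lay below the lowest CRS library, and also below every CON library (C10 against CRS -3.30 ± 0.56, edgeR adjusted p = 0.0239). Of 20 genes typical of lipid-associated macrophages, cells that engulf lipid and dead tissue, 19 lay below 0 and 1 above, with a median of -0.55, and 12 (60%) were lower at an unadjusted p under 0.05 against 0 higher. In limma-voom 16 lay below 0 and 4 above (median -0.335). Without CRS 1 the counts were 17 and 3 (median -0.407), while without CRS 2 and 5 together the median was -0.884. The summed level of the list overlapped, at 2152 to 2723 CPM in C10 and 2523 to 5733 CPM in CRS. Gpnmb was the only call by edgeR (against 0.0656% of all genes lower) and by limma-voom (against 1.75%). DESeq2 called 6 (against 1.32%), with Trem2, Mmp12 and Atp6v0d2 among them. Trem2, a lipid receptor that sets this state, ran from 7.02 to 12.2 CPM in C10 and from 12.4 to 41.3 CPM in CRS (-1.33 ± 0.31, edgeR adjusted p = 0.103). Mmp12, the elastase of macrophages, ran from 1.98 to 10.4 CPM and from 5.73 to 98.6 CPM (-2.62 ± 0.63, edgeR adjusted p = 0.105), with its highest value in CRS 1. The list shares 2 genes with the hydrolase list.

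Markers of the cells that could make Gpnmb overlapped between the groups. Summed over 22 genes of macrophages, monocytes and dendritic cells, the level ran from 1286 to 2429 CPM in C10 and from 570.7 to 4298 CPM in CRS, with 9 genes above 0 and 13 below (median -0.18). Without CRS 1, 14 lay above 0 and 8 below (median 0.18), and in limma-voom 13 and 9. By edgeR, DESeq2 and limma-voom 0 were called, and 1 was higher and 1 lower at an unadjusted p under 0.05. Adgre1 ran from 20.2 to 46.3 CPM in C10 and from 14.0 to 157 CPM in CRS (-0.92, edgeR adjusted p = 0.435). Csf1r ran from 72.6 to 174 CPM and from 40.4 to 272 CPM, and Mrc1 from 24.5 to 46.6 CPM and from 27.4 to 74.6 CPM. In the same list Cd68 differed by -0.94 (edgeR adjusted p = 0.307) and Zbtb46 by 0.33 (edgeR adjusted p = 0.222). CRS 2 had the lowest mean of that list (3.20 log2 CPM, against 4.09 to 5.14 in C10). Its Gpnmb, at 110 CPM, was the lowest of the CRS libraries and lay above every C10 library. CRS 2 is a single library, and it was also the lowest on the first principal component (-80.9). Bone and osteoclast genes, 19 measured, summed to 1014 to 2522 CPM in C10 and 1278 to 4050 CPM in CRS, with 14 below 0, 3 lower at an unadjusted p under 0.05, 0 called by edgeR and 1 by DESeq2. Acp5 of osteoclasts ran from 20.4 to 64.3 CPM and from 11.4 to 89.2 CPM. Of 12 melanocyte genes 6 were measured, with sums of 61.8 to 99.6 CPM in C10 and 66.6 to 117 CPM in CRS, and Tyr was at or near 0 in every library. The part of these cells in the lysosomal and Gpnmb differences was not tested.

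**Figure D4:**
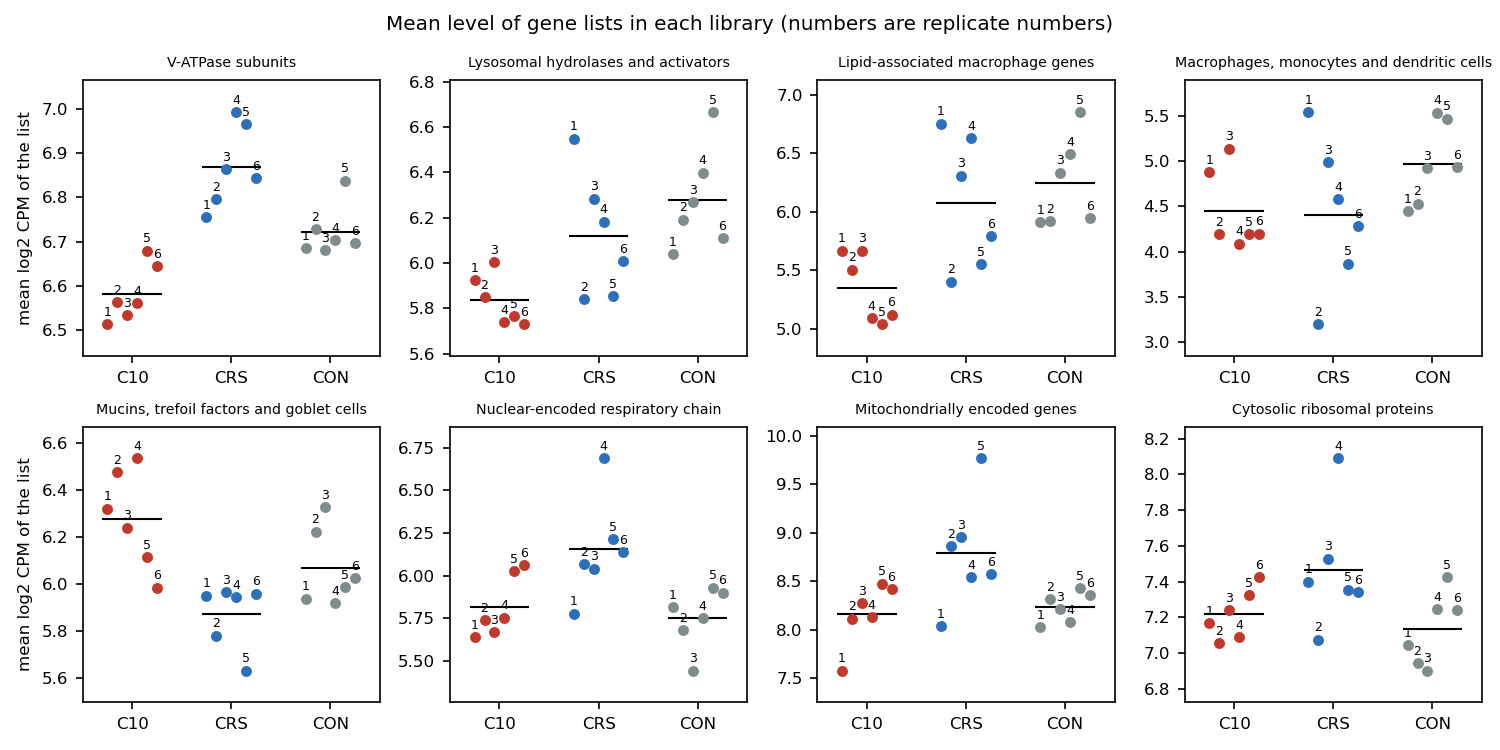
Each point is a library's mean log2 CPM over a gene list, with its replicate number beside it and a line for the group mean, for C10, CRS and CON from left to right. The V-ATPase panel separates C10 (6.51 to 6.68) from CRS (6.76 to 6.99), while the macrophage panel overlaps and CRS 4 stands highest for the respiratory chain and ribosomal panels.

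The called genes that rose in C10 were those of an alarm cytokine, a trefoil peptide and a sugar transferase of the family that acts on mucins. Il33, the cytokine that damaged epithelium releases and that papain is known to raise, stood at 127, 113, 128, 127, 133 and 127 CPM in C10, at 76.6, 80.9, 85.9, 70.5, 73.7 and 82.4 CPM in CRS and at 110, 89.1, 77.3, 91.9, 75.7 and 102 CPM in CON. All C10 libraries lay above all CRS libraries and above all CON libraries (C10 against CRS 0.68 ± 0.09, edgeR adjusted p = 0.00233). Tff2, a trefoil peptide secreted with mucus and known to act on tissue repair, stood at 106, 89.8, 79.8, 78.6, 74.6 and 81.2 CPM in C10 and at 37.6, 34.4, 53.03, 49.6, 47.1 and 46.3 CPM in CRS. It was 1.90-fold higher in C10 by the means, with no overlap (0.93 ± 0.13, edgeR adjusted p = 0.00302). Galnt15, whose family adds the first sugar to mucin chains, stood at 47.7, 49.3, 40.7, 39.1, 39.3 and 37.6 CPM in C10 and at 29.1, 25.6, 21.2, 26.7, 16.6 and 26.9 CPM in CRS. Again no library crossed (0.80 ± 0.12, edgeR adjusted p = 0.00587), and the gene overlaps the model Gm49084.

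Of 24 measured genes of mucins, trefoil factors and goblet cells, 19 lay above 0 and 5 below (median 0.23), and 7 (29.2%) were higher at an unadjusted p under 0.05 against 0 lower, beside 5.77% of all genes higher. By edgeR 2 were called (against 0.0164% of all genes higher), by DESeq2 3 (0.596%) and by limma-voom 4 (1.24%). Muc5ac, the main gel-forming mucin of surface goblet cells, stood at 1360, 1532, 1383, 903, 565 and 238 CPM in C10 and at 463, 239, 465, 225, 82.5 and 312 CPM in CRS. C10 6 lay within the CRS range, and the difference of 1.74 ± 0.43 did not pass in edgeR (adjusted p = 0.109) and did in DESeq2 and limma-voom. Muc5b, the mucin of glands, ran from 1241 to 3243 CPM in C10 and from 898 to 2022 CPM in CRS (0.51, edgeR adjusted p = 0.387). Bpifb1, a secreted host-defence protein of goblet cells, ran from 92.0 to 173 CPM in C10 and from 41.1 to 104 CPM in CRS (0.94, edgeR adjusted p = 0.12), and was called higher by DESeq2 and limma-voom.

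Marker lists of other cells are set beside the mucin genes, each with 0 called by edgeR. Of 16 genes of basal and squamous keratinocytes 14 lay below 0 (median -0.33, and -0.09 in limma-voom), 4 at an unadjusted p under 0.05 (25%), and they summed to 608 to 864.5 CPM in C10 and 710.6 to 1184 CPM in CRS. Of 33 genes of fibroblasts and matrix 27 lay below 0 (median -0.25, but 0.04 without CRS 1), 2 at an unadjusted p under 0.05, with sums of 4779 to 8525 CPM in C10 and 4830 to 14130 CPM in CRS. Of 10 neutrophil genes 10 lay above 0 and 0 were at an unadjusted p under 0.05. Their median was 0.36, but 0.11 without CRS 2, 0.12 without CRS 5 and -0.17 without both. The same median was 0.74 without CRS 1 and 0.90 in limma-voom. Most of the neutrophil sum came from Ltf, the lactoferrin gene, with 17940 CPM in C10 and 17610 CPM in CRS. The part of these cells in the mucin values was not tested.

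Il33 was the only call among the genes of type 2 inflammation with edgeR, and DESeq2 and limma-voom called 2 each. Of 28 listed, 19 were measured, 9 above 0 and 10 below. The cytokine gene Il4 differed by -0.08 (edgeR adjusted p = 0.926), and Il5, Il13, Il25 and Tslp were below the filter, with at most 1.5 CPM in any of the 12 libraries. Chil4, a chitinase-like protein of the papain response, stood at 26.8, 13.3, 32.6, 527, 467 and 42.6 CPM in C10 and at 17.4, 2016, 39.2, 58.1, 418 and 389 CPM in CRS. It was high in 2 C10 and 3 CRS libraries and low in the rest (-1.40, edgeR adjusted p = 0.654). Itln1, an intelectin secreted by goblet cells, ran from 21.3 to 35.5 CPM in C10 and from 4.76 to 18.1 CPM in CRS (1.09 ± 0.26, edgeR adjusted p = 0.106), and was called higher by DESeq2 and limma-voom.

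Ppargc1a, the coactivator PGC-1α that switches on genes of mitochondria, fell in C10, and genes of the respiratory chain were lower beside it. It stood at 46.1, 39.7, 38.6, 45.1, 39.1 and 38.5 CPM in C10, at 61.6, 49.6, 60.2, 70.6, 59.9 and 78.7 CPM in CRS and at 35.6, 42.7, 27.5, 31.3, 33.8 and 42.8 CPM in CON. C10 lay below CRS without overlap (-0.62 ± 0.12, edgeR adjusted p = 0.0458) and overlapped CON, and it overlaps 4 non-coding gene models. Of 13 mitochondrially encoded genes 13 lay below 0 (median -0.65), 12 at an unadjusted p under 0.05, and 0 were called by edgeR, 5 by DESeq2 and 1 by limma-voom. Without CRS 5 their median was -0.43. Of 77 nuclear genes of the respiratory chain 75 lay below 0 (median -0.35), 56 (72.7%) at an unadjusted p under 0.05, and 0 were called by edgeR, 4 by DESeq2 and 28 by limma-voom. Over all genes tested, 7.41% were lower at that unadjusted p, and DESeq2 called 1.32% lower and limma-voom 1.75%. mt-Nd1, a subunit of complex I, stood at 2550, 2807, 2547, 3065, 3468 and 3386 CPM in C10 and at 2621, 3922, 4459, 5655, 7494 and 3799 CPM in CRS. CRS 1 lay among the C10 libraries and CRS 5 far above them (-0.65 ± 0.19, edgeR adjusted p = 0.158).

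Ribosomal protein genes followed the same direction, with larger values in CRS 4. Of 81 genes of the cytosolic ribosome, 80 lay below 0 (median -0.26), 22 at an unadjusted p under 0.05, and of 77 of the mitochondrial ribosome 67 (median -0.16), also 22. By edgeR 0 were called in both, by DESeq2 2 and 1 in that order, and by limma-voom 1 and 6. Among all genes tested, DESeq2 called 1.32% lower and limma-voom 1.75%, and 7.41% were lower at that unadjusted p. Rpl21, a protein of the large subunit, ran from 29.0 to 37.9 CPM in C10 and from 38.0 to 131 CPM in CRS (-0.93 ± 0.25, edgeR adjusted p = 0.136), and CRS 4 was the highest. Ribosomal protein genes share reads with pseudogenes, so single values are uncertain. Gene length moved with the fold changes: the median over protein-coding genes was -0.19 for the 412 of up to 1000 bases, -0.12 for the next 777, -0.05 for 2377, -0.02 for 3893 and 0.04 for the 8369 over 4000 bases. CRS 4 exceeded the average library by 0.56 log2 units for the shortest class, against -0.13 to 0.17 in C10 and -0.11 to 0.17 in the other CRS libraries. Without CRS 4 the medians were -0.25 for the respiratory chain, -0.11 for the cytosolic ribosome and -0.60 for the mitochondrially encoded genes, and -0.28 for the V-ATPase and -0.29 for hydrolases. The median gene length was 784 bases for the mitochondrially encoded genes, 1675 for the respiratory chain, 1770 for the cytosolic ribosome, 3364 for hydrolases and 3747 for the V-ATPase. The part of gene length in these medians was not tested.

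Vegfb, a growth factor of the VEGF family, fell in C10. It stood at 23.6, 21.7, 21.4, 23.5, 24.7 and 21.6 CPM in C10 and at 32.3, 32.2, 33.6, 28.9, 36.4 and 34.4 CPM in CRS, a clear gap (-0.54 ± 0.09, edgeR adjusted p = 0.029). Vegfa, the hypoxia-inducible member, ran from 38.0 to 54.6 CPM in C10 and from 45.1 to 75.4 CPM in CRS (-0.46 ± 0.13, edgeR adjusted p = 0.141). Of 29 genes of hypoxia and glycolysis, 25 lay below 0 (median -0.26), 13 (44.8%) at an unadjusted p under 0.05 against 1 higher, and 0 were called by edgeR, 3 by DESeq2 and 7 by limma-voom. The shares of all genes were 7.41% lower at that p, 1.32% called lower by DESeq2 and 1.75% by limma-voom. Pgk1, a glycolytic kinase, ran from 197 to 249 CPM in C10 and from 254 to 338 CPM in CRS (-0.38 ± 0.09, edgeR adjusted p = 0.103).

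The gene of the compound's stated target did not pass. Apex1 ran from 3.9 to 6.46 CPM in C10 and from 5.16 to 6.8 CPM in CRS, with overlap (-0.21, edgeR adjusted p = 0.568). Of 27 base excision repair genes, 15 lay below 0 and 12 above, 2 were lower at an unadjusted p under 0.05 and 0 were called by edgeR, DESeq2 or limma-voom. The list of AP-1 and immediate early genes and the list of NF-kB and acute inflammation held no call by any of these tools either. In the AP-1 and immediate early list 16 of 21 lay below 0 (median -0.24, but -0.05 without CRS 1; 3 lower at an unadjusted p under 0.05), in the NF-kB list 17 of 32 (median 0.00, but 0.23 without CRS 1; 1 higher). Of 18 p53 targets 12 lay below 0, 2 at an unadjusted p under 0.05, with 0 called by edgeR or DESeq2 and 1 by limma-voom.

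The lists that follow held no call by edgeR. Over all genes tested, 5.77% were higher and 7.41% lower at an unadjusted p under 0.05. DESeq2 called 0.596% of all genes higher and 1.32% lower, and limma-voom 1.24% and 1.75%. Of 19 clock genes, 8 were higher and 6 lower at an unadjusted p under 0.05. DESeq2 called 4 clock genes higher and 1 lower, and limma-voom 5 higher and 1 lower. Among them were Cry2, a repressor of the clock, at 63.7 to 74.9 CPM in C10 and 40.2 to 58.5 CPM in CRS (0.47 ± 0.10, edgeR adjusted p = 0.0993) and Dbp, an output factor, at 53.4 to 86.7 CPM and 26.2 to 61.1 CPM (0.79 ± 0.18, edgeR adjusted p = 0.101). Arntl, the activator BMAL1, differed by -0.54 ± 0.14 (edgeR adjusted p = 0.126). Since the hour of collection is not given, hour and group cannot be told apart here. Of 15 genes of immature olfactory neurons and their progenitors 15 lay above 0 (median 0.51, 4 at an unadjusted p under 0.05, 1 called by DESeq2 and 1 by limma-voom). The progenitor factor Neurod1 stood at 2.8 to 9.06 CPM in C10 and 1.86 to 5.26 CPM in CRS (1.07 ± 0.29, edgeR adjusted p = 0.139). The 16 genes of mature neurons had a median of 0.07, which lay below 0 without C10 5, C10 6, CRS 1 or CRS 3. Of 611 odorant receptor genes measured among 1092 listed, 474 lay above 0 (median 0.28). At an unadjusted p under 0.05, 58 were higher (9.49%) and 0 lower, and 8 were called higher by DESeq2 and 4 by limma-voom. The median was 0.16 without CRS 1, and in limma-voom 0.10 with 372 above 0. Ciliated-cell genes had a median of 0.33, with 20 of 23 above 0, 7 at an unadjusted p under 0.05 and 0 called by DESeq2 or limma-voom. Genes of sterol and fatty acid synthesis had a median of 0.15, but 0.07 without CRS 4 and 0.10 without CRS 5. Of these genes 25 of 30 lay above 0, 7 at an unadjusted p under 0.05, with 0 called by DESeq2 and 2 by limma-voom (Elovl6 and Stard4). Heat shock genes had a median of -0.11, with 16 of 17 below 0, 6 at an unadjusted p under 0.05, 1 called by DESeq2 and 1 by limma-voom.

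C10 and CRS were each also set against CON. These comparisons share libraries with C10 against CRS, so their values are given side by side and not as separate evidence. Against CON, 29 genes passed in C10 (0.159%), 8 higher (0.0437%) and 21 lower (0.115%), and 1 passed in CRS, Ppargc1a (0.00547%). Uap1l1, Il33, Dpp7 and Gpnmb passed both in C10 against CRS and in C10 against CON, with log2 fold changes of -0.84, 0.47, -0.84 and -3.67 against CON (edgeR adjusted p = 0.0108, 0.0327, 0.0294 and 0.0122). In CRS against CON the same 4 genes differed by 0.21, -0.22, 0.16 and -0.37, none past the threshold. Of the hydrolases Dpp7, Hexa, Ctsd, Tpp1 and Arsa were lower in C10 than in CON, of the membrane proteins Lamp1 and Mfsd12, of the macrophage genes Gpnmb and Trem2. Ppargc1a differed by 0.21 in C10 against CON (edgeR adjusted p = 0.448) and by 0.83 in CRS against CON (edgeR adjusted p = 0.018). Flcn differed by -0.20 in C10 against CON (edgeR adjusted p = 0.37) and by 0.51 in CRS against CON (edgeR adjusted p = 0.115).

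**Figure D5:**
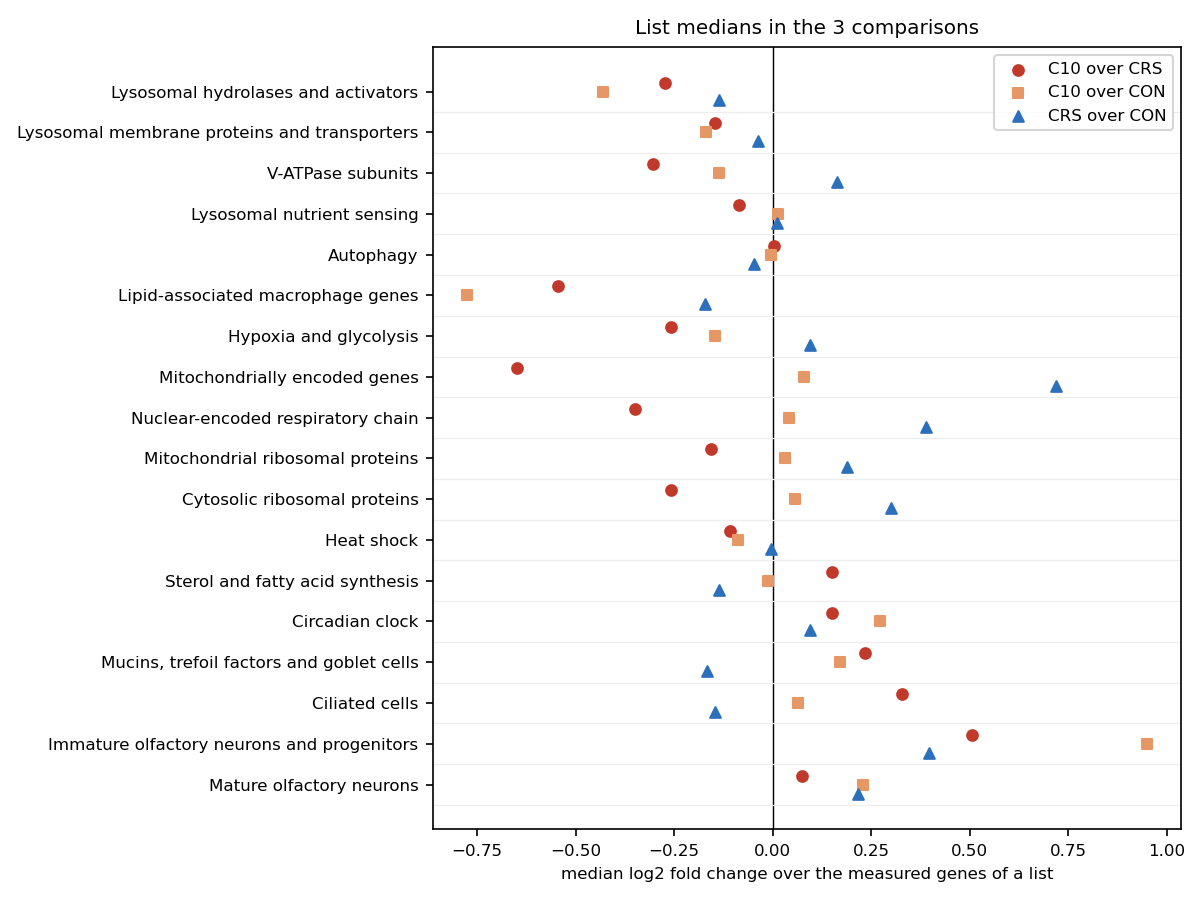
Each symbol is the median log2 fold change over the measured genes of a list, for C10 over CRS (circle), C10 over CON (square) and CRS over CON (triangle), which share libraries. Hydrolases stand at -0.27, -0.43 and -0.14 and V-ATPase genes at -0.30, -0.14 and 0.16 in that order, and mitochondrially encoded genes at -0.65, 0.08 and 0.72.

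List medians against CON are given as values with no test. Hydrolase genes had a median of -0.43 in C10 against CON and -0.14 in CRS against CON, and lipid-associated macrophage genes had -0.78 and -0.17. V-ATPase genes had -0.14 and 0.16, the respiratory chain 0.04 and 0.39, mitochondrially encoded genes 0.08 and 0.72, and cytosolic ribosomal protein genes 0.06 and 0.30. Mucin and goblet cell genes had 0.17 and -0.17, and immature olfactory neuron genes 0.95 and 0.40.

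How firmly each call stood differed. When each of the 18 libraries was left out in turn, Uap1l1, Il33, Flcn, Fuca2, Dpp7, Tff2 and Galnt15 passed in all 18 fits, and Cln8 in 17, missing without C10 3 (edgeR adjusted p = 0.055). Cd63 passed in 14, Atp6ap2 and Gpnmb in 13, Atp6v1c1 in 12, Vegfb in 9, Ppargc1a in 6 and Atp6v0c in 5. Gpnmb was lost without C10 2, 3, 4 or 6 or CRS 3 (edgeR adjusted p up to 0.0797), Cd63 without C10 1, 2, 3 or 4 (up to 0.0703), Atp6ap2 without C10 1, 2, 3 or 4 or CRS 6 (up to 0.0813), and Atp6v1c1 without C10 1, 2, 3 or 4, CRS 3 or CON 4 (up to 0.0957). Vegfb was lost without C10 1, 2, 3, 4 or 6, CRS 3, 5 or 6 or CON 4 (edgeR adjusted p up to 0.107), Ppargc1a without each C10 library in turn, CRS 3, 4, 5 or 6 or CON 1 or 4 (up to 0.125), and Atp6v0c without C10 1, 2, 3, 4 or 6, CRS 3, 4, 5 or 6 or CON 1, 2, 4 or 6 (up to 0.11). In a fit of the C10 and CRS libraries alone, Galnt15 and Ppargc1a (edgeR adjusted p = 0.0567 each), Atp6ap2 and Gpnmb (0.0581 each), Atp6v1c1 (0.0844) and Atp6v0c (0.114) did not pass.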

How the data were processed

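The deposited main table gives unnormalized counts of reads for each gene, 1 column per library, and per the submitters' processing notes the genome build is mm10. Aligner, counter and annotation release: not given in the sources used here, and the kit named in the labels is not stated to keep strand. The authors also deposited FPKM values, used only as an alternative. All columns were matched to a library by name, and 0 were left over.

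Counts were analysed in R 4.3.3 with edgeR 4.0.16 (filterByExpr by group, TMM factors, quasi-likelihood F-test over all 18 libraries with 1 mean per group, contrast C10 minus CRS). Two-sided p-values were adjusted by the Benjamini-Hochberg method over 18291 genes, and a gene under 0.05 counts as called. The SE is the log2 fold change over the square root of F, CPM uses TMM-scaled library sizes, and n is 6 per group. The biological coefficient of variation was 0.264. The floor of 3 counts, 0.163 to 0.193 CPM, reflects counting error alone. No library repeats another (153 pairs compared, chi-square over degrees of freedom at least 14.5). The script was tested on simulated data. Alternatives used DESeq2 1.42.0, limma 3.58.1 (voom and log2 FPKM), other filters and scaling, a replicate block, an olfactory covariate, a 1.5-fold minimum and left-out libraries, 31 in all and 25 of them planned.

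The 49 gene lists and members were chosen with earlier results of these data known. Genes were named by a rule: every called gene, the next 12 by p, the 3 of smallest p per list, fixed genes and the neighbours of Uap1l1 and Dpp7. Other genes were named after their values were seen. Of 167 genes so named, 73 overlap another gene and 38 a protein-coding one, and such counts cannot be separated without strand. Lists were described by counts and medians, and no set test was run.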

Additional observations from a re-analysis of the deposited data

Results flagged for a closer look

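A single library stood far from the other 5 of its group in 27 of 324 groups checked, which are 162 named genes in C10 and in CRS. Chance alone sets a library apart in about 1 group in 20, and 9 of the 27 were in CRS 4. The values below are CPM.

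In C10, Il33 stood at 112.8 in C10 2, against 126.6 to 132.6 in the others, still above every CRS library. Insig1, a brake on sterol synthesis, stood at 201 in C10 3, against 270.1 to 303.8. C10 5 was low for the autophagy gene Rb1cc1 at 70.21 and high for the repair gene Xrcc1 at 35.48 and for Sapcd2 at 3.622. C10 1 was high for Itln1 at 35.45 and for Gzmb, a granule protease of killer cells, at 8.68, and C10 2 for the haemoglobin gene Hba-a2 at 17.37.

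In CRS 4, Cd63 stood at 452.2, against 285.9 to 335.2 in the other CRS libraries. The other genes high in CRS 4 were Gabarap at 345.1, Bglap2 of bone at 17.05, Slc4a1 of red cells at 2.668, the chaperonin gene Hspe1 at 106.8, Rpl21 at 130.8, Rps28 at 269.9, Cox7a1 at 5.046 and Mrpl23 at 49.07. CRS 1 was high for Mmp12 at 98.57, for the neutrophil genes Mmp9 at 106.4 and Cxcr2 at 42.98, for Nr4a2 at 31.29 and for Stard4 at 37.45. CRS 2 was high for Chil4 at 2016, CRS 3 for Derl3 at 53.74, CRS 5 for Jun at 173.6 and Duox1 at 3.384, and CRS 6 for Olfr988 at 1.814.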

How the results depend on the processing

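The directions of the 15 called genes were the same under all 31 alternatives, and Uap1l1, Il33, Flcn, Fuca2, Tff2 and Dpp7 passed in 30 of them, all but the 1.5-fold minimum. The number of calls moved more. With at least 1 CPM in 6 libraries 5 genes were higher and 18 lower in C10, and with limma on log2 of FPKM plus 1 also 5 and 18. With the C10 and CRS libraries alone 2 were higher and 7 lower. There Galnt15, Atp6ap2, Atp6v1c1, Atp6v0c, Gpnmb and Ppargc1a did not pass. With an olfactory neuron covariate 315 were higher and 254 lower. With a minimum of 1.5-fold, tried in edgeR alone, 0 were higher and 0 lower (216 genes at an unadjusted p under 0.05). With no such minimum, 109 were higher and 241 lower in DESeq2, and 227 and 321 in limma-voom. Without CRS 2 and 5 together 37 were higher and 63 lower, and without CRS 1, 2 and 5 together 16 and 37; the cause was not tested. With 1 library left out the counts ran from 3 to 24 higher and from 4 to 57 lower. The lower count was 6 without C10 1, 6 without C10 2, 4 without C10 3 and 5 without C10 4, and the 2 counts were 5 and 20 without C10 5, 5 and 24 without CRS 1, 24 and 57 without CRS 2, 5 and 10 without CON 1 and 6 and 24 without CON 5; the CON fits were added after seeing the data.

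Same-numbered C10 and CRS libraries correlated at -0.231 to 0.519, and for C10 1, 2 and 5 the best-correlated CRS library carried the same number. Whether the replicate numbers pair the libraries cannot be told from these values. With the replicate number as a block, 3 genes were higher and 10 lower, and Atp6v1c1, Cd63, Gpnmb and Ppargc1a did not pass.

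Fold changes of uncalled genes that turned sign were these. Hba-a2 was 0.062 in limma-voom. With 1 library left out, Mitf ran from -0.23 to 0.034 and Pax5 from -0.85 to 0.24 (above 0 without CRS 1), Omp from -0.21 to 0.027 (above 0 without CRS 2 or, at 0.0072, CRS 5) and Il4 from -0.21 to 0.13 (above 0 without CRS 5). Without CRS 2 and 5, Chil4 was 0.54, Il4 0.22, Omp 0.22, Ciita -0.031 and Cd74 -0.083, and without CRS 1, 2 and 5, Chil4 was 0.17, Il4 0.13, Omp 0.080 and Derl3 -0.048. Levels under the floor of 3 counts, 0.163 to 0.193 CPM, could not be compared at this depth.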

Other observations

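Several further genes came close to the threshold between C10 and CRS and are given as values. Nrarp, a target of Notch signalling, ran from 6.16 to 10.8 CPM in C10 and from 3.28 to 5.48 CPM in CRS (log2 fold change 0.89, edgeR adjusted p = 0.0575). Acaa1b, a peroxisomal thiolase of fatty acid oxidation, ran from 2.68 to 4.76 CPM in C10 and from 5.62 to 9.61 CPM in CRS (-0.96, edgeR adjusted p = 0.0575). Hspa9, the mitochondrial chaperone mortalin, ran from 190 to 209.6 CPM in C10 and from 225 to 255.7 CPM in CRS (-0.27, edgeR adjusted p = 0.0575). In these 3 genes no C10 library overlapped a CRS library. Olfr988, an odorant receptor gene, ran from 2.58 to 9.49 CPM in C10 and from 0.302 to 1.81 CPM in CRS (2.82, edgeR adjusted p = 0.064). Krt7, a keratin of simple and glandular epithelium, ran from 76.1 to 106.5 CPM in C10 and from 93.2 to 159.7 CPM in CRS (-0.50, edgeR adjusted p = 0.105).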
